A study of Mus musculus with 32 samples.

Results

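The RNA of 9 genes that set or remove histone acetylation was compared between WT and Eed-/- mouse embryonic stem cells (mESCs). The genes were taken by symbol from the expression tables, 9 of 24028 symbols in all. They are the acetyltransferase genes Ep300 and Crebbp, here called the writers, the class I deacetylase genes Hdac1, Hdac2 and Hdac3, the class IIa deacetylase genes Hdac4, Hdac5 and Hdac7, and the sirtuin gene Sirt1. All are autosomal, and all 9 had a mean normalized FPKM (sequenced fragments scaled to transcript length and library depth) of at least 0.1, the level used to keep a gene.

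mESCs are a pluripotent cell type derived from the blastocyst, grown here in serum with leukemia inhibiting factor on gelatin. RNA-seq of total RNA depleted of ribosomal RNA was made from WT cells and from cells deficient in Eed, a core subunit of Polycomb repressive complex 2 (PRC2), with 1 library per genotype, 2 of the 32 samples of the series. Both RNA samples are labelled with the line TT2. In other assays the Eed-/- samples carry a different line name, so the labels leave the line of the Eed-/- cells uncertain, and a difference of line could not be told apart from one of genotype. With no replicate libraries, no test between genotypes was possible, and no difference below was compared with the spread between cultures.

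Acetylation of lysine 27 of histone H3 marks active promoters and enhancers, while PRC2 places methyl groups on the same lysine, so one residue cannot carry both marks. EP300 and its close relative CREBBP are the acetyltransferases that place most of this acetylation, and bromodomain proteins bind acetylated histones. HDAC1 and HDAC2 are the catalytic subunits of the SIN3, NuRD and CoREST complexes, HDAC3 works in a corepressor complex with NCOR1, the class IIa enzymes have little catalytic activity of their own and are brought to DNA by MEF2 factors, and SIRT1 is a deacetylase that needs NAD. EED has been linked to histone deacetylases.

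The promoters of Crebbp, Hdac4 and Hdac5 are shown because these 3 genes, of the members above an FPKM of 1, differed most between the libraries under every scaling tried. Each sequence is a RefSeq window of 300 bases on GRCm38.p6, a later build than that of the expression tables, read 5′ to 3′ on the strand of the gene, and every CG is in capitals. The window of Crebbp is chr16:4213355-4213654 on the minus strand, that of Hdac4 is chr1:92180292-92180591 on the minus strand, and that of Hdac5 is chr11:102230123-102230422 on the minus strand.
Crebbp: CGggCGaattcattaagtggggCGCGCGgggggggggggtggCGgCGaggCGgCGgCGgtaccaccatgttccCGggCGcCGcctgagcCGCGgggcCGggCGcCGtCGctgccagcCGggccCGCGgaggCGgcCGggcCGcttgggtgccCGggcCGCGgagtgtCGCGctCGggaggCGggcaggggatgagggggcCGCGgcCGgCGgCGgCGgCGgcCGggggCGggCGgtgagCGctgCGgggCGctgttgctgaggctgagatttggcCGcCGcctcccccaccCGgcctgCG
Hdac4: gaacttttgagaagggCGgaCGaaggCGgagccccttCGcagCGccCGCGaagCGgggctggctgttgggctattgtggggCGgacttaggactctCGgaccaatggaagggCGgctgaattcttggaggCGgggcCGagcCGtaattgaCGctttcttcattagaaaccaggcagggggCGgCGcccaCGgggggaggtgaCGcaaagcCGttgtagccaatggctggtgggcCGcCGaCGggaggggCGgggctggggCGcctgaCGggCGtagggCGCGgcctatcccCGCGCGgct
Hdac5: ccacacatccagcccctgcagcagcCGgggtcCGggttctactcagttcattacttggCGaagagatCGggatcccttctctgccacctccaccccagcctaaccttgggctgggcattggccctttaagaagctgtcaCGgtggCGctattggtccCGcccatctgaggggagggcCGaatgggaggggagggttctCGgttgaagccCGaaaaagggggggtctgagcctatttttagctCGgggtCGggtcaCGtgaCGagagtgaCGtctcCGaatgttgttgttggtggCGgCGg

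The Crebbp window held 49 CG, a number that 1.02% of the 32851 windows of the table reached. Hdac4 held 32 CG, reached by 9.52% of windows, and Hdac5 held 18, reached by 29.7%, against a median of 7 CG over all windows. Outside chromosome 18, 7 of the 9 genes had a window by symbol. Of the 4 not shown, Ep300 held 30 CG, Hdac2 36 and Sirt1 47, and the 4 windows of Hdac7 held 35, 31, 6 and 5. No window was found for Hdac1. Member windows on chromosome 18, where Hdac3 lies, were left out, so Hdac3 was not examined. The letters of the GC box (GGGCGG, either strand), present in 35.7% of windows, occurred 5 times in Hdac4 and once each in Crebbp and Hdac5. The CCAAT box (CCAAT, either strand), present in 37.4% of windows, occurred 2 times in both Hdac4 and Hdac5 and was not found in the Crebbp window. These motifs overlap CG only in the GC box, and a match is a description of the letters.

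Depth was recovered from low values, as a depth at which these lay near whole fragments. This gave about 7220000 fragments in WT and 6450000 in the Eed-/- labelled library. At these depths, a tolerance of 0.1 around whole fragments took in 77.8% of 936 values in WT and 79.6% of 1045 in the other library. For a transcript of 2 kb, an FPKM of 2 corresponds to 26.3 and 23.5 fragments. Intervals below are 95% intervals for counting error only, and a fragment number is approximate where a gene has several transcripts. Eed itself was not reduced, with 63.0 FPKM in WT and 70.9 in the Eed-/- labelled library, so its RNA does not check the label. The authors checked the loss of Eed through trimethylation of lysine 27 of histone H3, by western blot and ChIP-seq, which were not analysed here. The tables give no exon-level values. All 9 mESC markers were present in both libraries, at 25.5 to 393 FPKM in WT and 44.4 to 373 in the other library. Single markers differed, with Zfp42 (131 and 272 FPKM), Klf4 (25.5 and 44.4 FPKM) and Nanog (114 and 176 FPKM) higher in the Eed-/- labelled library. Utf1 (167 and 106 FPKM) and Sox2 (196 and 157 FPKM) were lower. Markers of primitive endoderm summed to 15.6 FPKM in WT and 57.2 in the Eed-/- labelled library (9 markers, 1 at 0 in each). Most of both sums came from Lama1 (8.25 and 33.5 FPKM) and Col4a1 (5.62 and 19.1 FPKM). At low levels, Gata4 (0.431 and 1.35 FPKM), Sox7 (0.314 and 1.15 FPKM) and Sox17 (0 and 0.449 FPKM) were also higher in the Eed-/- labelled library. So were Gata6 (0.184 and 0.514 FPKM) and Pdgfra (0.196 and 0.534 FPKM), while Dab2 had 0.499 and 0.515 FPKM and Foxa2 0.0731 and 0. Markers of trophoblast summed to 49.0 and 16.1 (8 markers, 2 and 1 at 0). The trophoblast list was mixed, with Tfap2c at 39.8 and 9.21 FPKM and Eomes at 0.478 and 1.93. Markers of feeder fibroblasts summed to 26.6 and 126 (8 markers, 2 and 3 at 0), nearly all from Vim and Thy1, whereas the collagen gene Col1a1 had 0.460 and 0.137 FPKM and Dcn was at 0 in both. The part of other cells in the differences below was not tested, and in bulk RNA fewer cells of a type cannot be told apart from less RNA per cell.

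In WT, Hdac2 had the highest level of the 9 genes at 79.6 FPKM. Sirt1 (27.9 FPKM) and Hdac3 (26.3 FPKM) followed and did not differ from each other beyond counting error, with a ratio of 1.06 (interval 0.937 to 1.21). Hdac1 (12.5 FPKM) and Hdac5 (11.8 FPKM) formed the next pair, and Crebbp (8.91 FPKM), Ep300 (8.10 FPKM) and Hdac4 (7.07 FPKM) came below, each within counting error of its neighbour. Hdac7 was lowest at 0.268 FPKM, about 7.85 fragments.

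In the Eed-/- labelled library, Hdac2 was again highest at 71.7 FPKM, and Hdac3 (23.2 FPKM) and Sirt1 (22.9 FPKM) were again alike within counting error. Crebbp (12.4 FPKM) stood beside Hdac1 (13.7 FPKM) and above Ep300 (8.58 FPKM), which it exceeded by a ratio of 1.45 (interval 1.28 to 1.64). Hdac5 (7.16 FPKM) and Hdac4 (4.58 FPKM) came below both writers, with an interval of 1.02 to 1.41 for the ratio of Ep300 to Hdac5. Hdac7 remained lowest at 0.611 FPKM, about 16.0 fragments. In WT Hdac5 had lain above Crebbp, by a ratio of 1.33 (interval 1.16 to 1.52), so the order of these genes turned between the libraries.

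**Figure D1:**
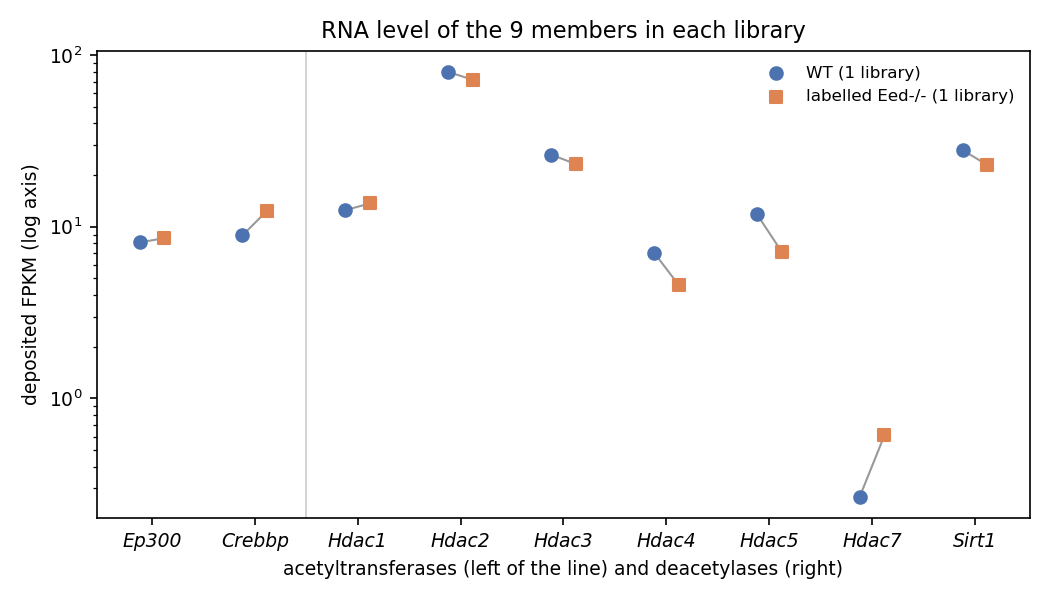
Deposited FPKM (log axis) of the 9 genes in the WT library (circles) and in the Eed-/- labelled library (squares), with a line joining the values of each gene and no error bar, since there is 1 library per genotype. Hdac2 is highest in both at 79.6 and 71.7 FPKM, and Hdac5 lies above Ep300 and Crebbp in WT and below both in the Eed-/- labelled library.

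For the comparison between the libraries, the values were quantile-normalized and the change of a gene is the difference in log2(FPKM + 1), Eed-/- minus WT, a scale that understates the change of low genes. No member passed 2-fold on this scale, in either direction. Of 14835 genes kept, 3.8% were at least 2-fold higher and 3.98% at least 2-fold lower. At 1.5-fold no member passed either, against 12.3% of genes higher and 12.4% lower. With a pseudocount of 0.1 or 0.01, 2 members were at least 1.5-fold higher, Crebbp (0.63 with both) and Hdac7. With these pseudocounts, 1694 and 1914 of the genes kept were at least 2-fold higher. The median change of the 9 members was 0.08 (range -0.51 to 0.58) and that of all genes kept was 0.0090. On the FPKM as deposited the median of all genes was -0.09, and their 2-fold calls were 455 higher and 801 lower instead of 564 and 590, so directions are given relative to a scaling. The median of the members was -0.15 on that scale.

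Counting error alone put Ep300 and Crebbp above and Hdac4 and Hdac5 below 0, with the other 5 members within it. The interval lay above 0 for 24.7% and below 0 for 23.2% of 13653 genes with fragments in both libraries, so 2 of 9 members on each side is close to the share of all genes.

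After normalization and with a pseudocount of 1, Crebbp had the largest change of the members, while Hdac5 and Hdac4 exceeded it in size on the FPKM as deposited and Hdac7 with lower pseudocounts. The gene (chr16:4084048-4213404 of mm9, minus strand) had 8.91 FPKM in WT, about 471 fragments, and 12.4 FPKM in the Eed-/- labelled library, about 586 fragments. Its change was 0.58 (interval 0.42 to 0.74), and 25.2% of all genes kept had a change of at least this size. The interval lay above 0 under each of the 3 scalings plotted, and the change was 0.44 on the FPKM as deposited.

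Ep300 (chr15:81415781-81482507, plus strand) had 8.10 FPKM in WT, about 501 fragments, and 8.58 FPKM in the Eed-/- labelled library, about 474 fragments. Its change of 0.21 (interval 0.05 to 0.38) was within counting error on the FPKM as deposited, where it was 0.07 (interval -0.09 to 0.24). A gene model on the same strand shares exon sequence with Ep300, so its level may include reads of that model. The FPKM ratio of Ep300 to Crebbp, which does not depend on scaling between libraries, went from 0.910 in WT to 0.692 in the Eed-/- labelled library, a log2 change of -0.40 (interval -0.65 to -0.14). The writers therefore differed unequally, and Crebbp exceeded Ep300 beyond counting error in the Eed-/- labelled library, which was not so in WT.

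Both writers have long transcripts, of 8749 bp for Ep300 and 7507 bp for Crebbp. At mean levels of 2 FPKM or more, the median change was 0.11 for the 995 genes with transcripts of 6 kb or more and -0.02 for the 3778 genes of 2 to 4 kb. The part of transcript length in the difference was not tested.

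Among the class I deacetylases, no change exceeded counting error after normalization. Hdac2 (chr10:36694350-36721695, plus strand), the most abundant of them, had 79.6 FPKM in WT and 71.7 in the Eed-/- labelled library, from about 1764 and 1419 fragments. Its change was 0.08 (interval -0.02 to 0.18) after quantile normalization and -0.15 (interval -0.25 to -0.05) on the FPKM as deposited, so its sign depended on the scaling. Hdac3 (chr18:38095498-38114642, minus strand) had 26.3 and 23.2 FPKM, a change of -0.0037 (interval -0.23 to 0.22).

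Hdac1 (chr4:129193348-129219957, minus strand) had 12.5 FPKM in WT, about 168 fragments, and 13.7 FPKM in the Eed-/- labelled library, about 164 fragments. Its change was 0.26 (interval -0.03 to 0.56). Near-identical copies of Hdac1 lie at chr17:78890879-78892881 and chr18:86016282-86018160 of mm9, and reads shared with them make its level uncertain. Of the FPKM of Hdac1 and Hdac2 together, Hdac1 made up 13.6% in WT and 16.0% in the other library, with a log2 change of their ratio of 0.28 (interval -0.05 to 0.61). A shift between these paralogs was not detectable at this depth.

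Of the class IIa genes, Hdac4 and Hdac5 were lower in the Eed-/- labelled library beyond counting error and Hdac7 was not. Hdac5 (chr11:102055746-102091480, minus strand) had 11.8 FPKM in WT, about 399 fragments, and 7.16 FPKM in the Eed-/- labelled library, about 216 fragments. This was the lowest change of the members, -0.51 (interval -0.73 to -0.29), and on the FPKM as deposited it was -0.65, past 1.5-fold. The change remained at -0.54 after the median of its chromosome was taken off.

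Hdac4 had 7.07 FPKM in WT, about 192 fragments, and 4.58 FPKM in the Eed-/- labelled library, about 111 fragments, a change of -0.40 (interval -0.70 to -0.11). It lies on chromosome 1 (chr1:93829334-94044970, minus strand, with 2 gene models of that symbol), whose 802 genes kept had a median change of -0.30. Relative to that median, Hdac4 differed by -0.10, and by 0.08 relative to the genes of the chromosome with a mean FPKM of at least 10, both within counting error. Chromosomes 8 and X, with medians of -0.39 and 0.46, carry no member, and the chromosomes of the other 8 members had medians between 0.01 and 0.10. The ratio of Hdac4 to Hdac5 was 0.597 in WT and 0.639 in the other library, a log2 change of 0.10 (interval -0.32 to 0.51).

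Hdac7 (chr15:97623095-97674933, minus strand) had 0.268 FPKM in WT and 0.611 FPKM in the Eed-/- labelled library, an FPKM ratio of 2.28 (interval 0.914 to 6.20) and a change of 0.36 (interval -0.03 to 0.67). With median-ratio scaling the interval of the change was 0.0095 to 0.70. The change was 0.97 with a pseudocount of 0.1 and 1.19, past 2-fold, with 0.01. Its exons overlap those of Slc48a1 on the other strand. At about 7.85 and 16.0 fragments a difference was not clearly detectable at this depth.

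Sirt1 (chr10:62781753-62844452, minus strand) had 27.9 FPKM in WT and 22.9 in the Eed-/- labelled library, from about 856 and 627 fragments. Its change was -0.10 (interval -0.24 to 0.05) after normalization and -0.28 (interval -0.42 to -0.13) on the FPKM as deposited. Antisense gene models overlap exons of both Sirt1 and Hdac4, and the sources used here do not state whether the quantification used strand.

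**Figure D2:**
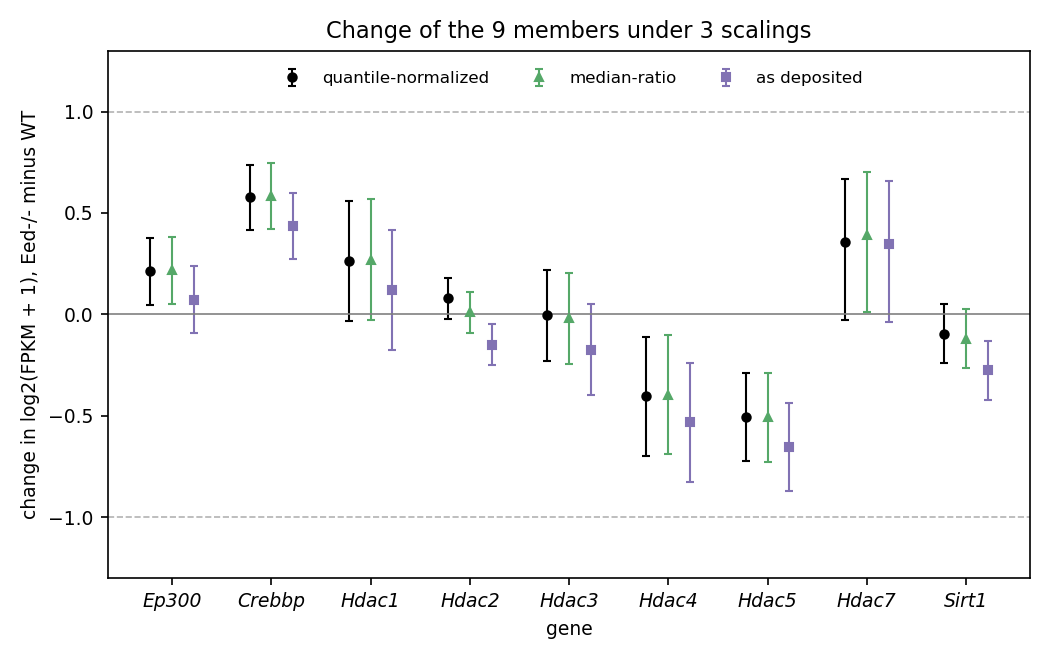
Change in log2(FPKM + 1), Eed-/- minus WT, of the 9 genes after quantile normalization (circles), after median-ratio scaling (triangles) and on the FPKM as deposited (squares), with 95% intervals for counting error and dashed lines at 2-fold. Crebbp lies above 0 and Hdac4 and Hdac5 below 0 under all 3 scalings, whereas Hdac2 changes side.

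The ratio of writers to deacetylases within a library was higher in the Eed-/- labelled library. Ep300 and Crebbp summed to 17.0 FPKM in WT and 21.0 in the Eed-/- labelled library, and the 7 deacetylases to 165 and 144 FPKM. This ratio went from 0.103 to 0.146, a log2 change of 0.51 (interval 0.36 to 0.65). Against class I alone the change was 0.43 (interval 0.27 to 0.58), against Sirt1 it was 0.59 (interval 0.39 to 0.78), and against class IIa, with a ratio of 0.887 in WT and 1.70 in the other library, it was 0.94 (interval 0.71 to 1.17).

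The direction holds for these 9 genes and turned when the other listed enzymes were added. With 14 more acetyltransferases and 11 more deacetylases the sums were 438 and 231 FPKM in WT and 358 and 202 in the Eed-/- labelled library, a log2 change of -0.090 (interval -0.17 to -0.0096). Hat1, which acetylates newly made histone H4, had the highest level of the added genes, 176 and 116 FPKM. Without Hat1, a choice made after seeing the data, the change was 0.085 (interval 0.0044 to 0.17).

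Within the 7 deacetylases, the class I genes took 71.5% of the FPKM in WT and 75.5% in the Eed-/- labelled library, a log2 change of their ratio to the rest of 0.29 (interval 0.15 to 0.44). The class IIa share was 11.6% and 8.59%, with a change of -0.48 (interval -0.69 to -0.27), from sums of 19.2 and 12.3 FPKM. The Sirt1 share was 16.9% and 15.9%, within counting error at -0.10 (interval -0.27 to 0.07). Hdac2 alone held 48.1% and 49.9%.

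**Figure D3:**
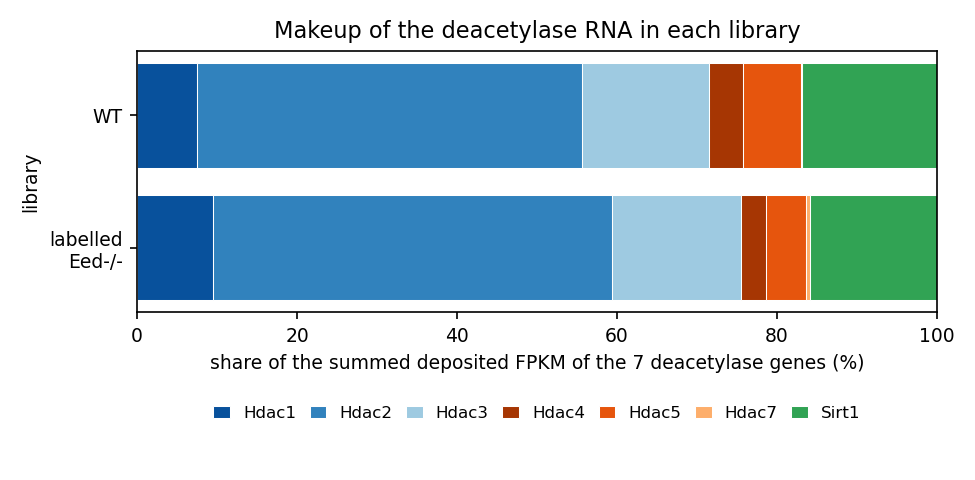
Share (%) of the summed deposited FPKM of the 7 deacetylase genes taken by each gene in the WT library and in the Eed-/- labelled library (1 library each). The class IIa genes Hdac4, Hdac5 and Hdac7 (orange shades) together go from 11.6% to 8.59%, and Hdac2 holds 48.1% and 49.9%.

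The other acetyltransferase genes, 14 in all, held no gene past 2-fold, and their changes ran from -0.65 to 0.81 with a median of 0.01. The interval lay above 0 for 5 of them and below 0 for 3, against 24.7% and 23.2% of genes with fragments in both libraries. At the low end was Kat8, the catalytic subunit of the MSL complex, and at the high end Clock, a circadian transcription factor. Kat2a, the catalytic subunit of SAGA, had 41.8 and 33.6 FPKM, well above both writers in level. Its change of -0.13 (interval -0.27 to 0.02) was within counting error after quantile normalization. The interval lay below 0 with median-ratio scaling (-0.30 to -0.0041) and on the FPKM as deposited (-0.45 to -0.16).

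The other deacetylase genes, 11 in all, had a median change of -0.33, and 8 of them were within counting error. At least 2-fold lower were 2 of the 11, and 0 were higher, against 3.98% and 3.8% of all genes kept. Both lower genes encode mitochondrial sirtuins. Sirt3 had 6.81 FPKM in WT and 1.25 in the Eed-/- labelled library, from about 63.0 and 10.4 fragments, a change of -1.71 (interval -2.28 to -1.06), and its exons overlap antisense genes. Sirt5 had 5.60 and 1.57 FPKM, from about 51.4 and 12.9 fragments, a change of -1.27 (interval -1.87 to -0.63). The only gene of the list whose interval lay above 0 was Hdac6, a cytoplasmic deacetylase of tubulin, with 25.4 and 30.6 FPKM and a change of 0.45, close to the median of 0.46 of its chromosome, X.

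**Figure D4:**
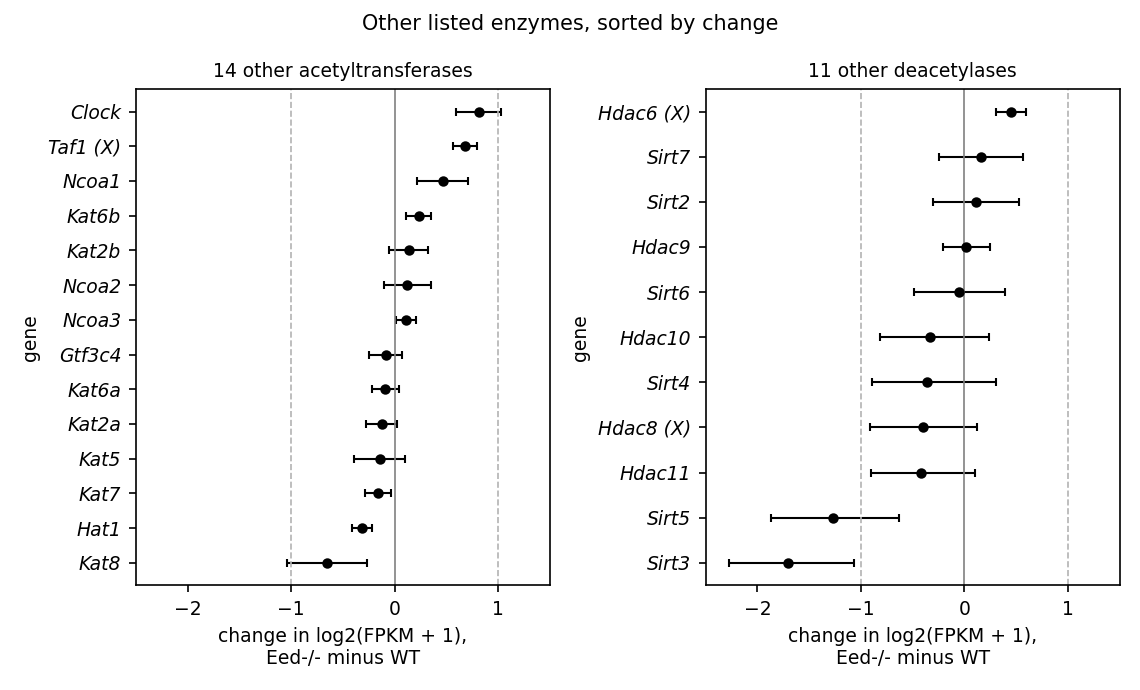
Change in log2(FPKM + 1), Eed-/- minus WT, of 14 other acetyltransferase genes (left) and 11 other deacetylase genes (right), with 95% intervals for counting error, dashed lines at 2-fold and X-linked genes marked. Sirt3 and Sirt5 lie past the 2-fold line on the lower side at -1.71 and -1.27, and no acetyltransferase passes it.

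Among the bromodomain readers of acetylation, Brd2 was lower in the Eed-/- labelled library, with 25.5 FPKM against 49.3 in WT, a change of -0.71 (interval -0.84 to -0.59), and Brd3 had 9.56 and 9.13 FPKM, a change of 0.07 (interval -0.13 to 0.27). Of 24 reader genes, 1 was at least 2-fold higher, X-linked Brwd3 (4.28 and 8.97 FPKM, change 1.03), and 0 lower. Of all genes kept, 3.8% were higher and 3.98% lower to this extent. The median of the readers was 0.12.

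The partners of the class I enzymes included 2 genes past 2-fold. Of 24 partner genes, mostly for SIN3, NuRD and CoREST subunits, these 2 were lower and 0 were higher. The shares of all genes kept were 3.98% and 3.8%, and the median of the 24 was -0.14. Mta1, a NuRD subunit that binds HDAC1 and HDAC2, had 13.8 and 3.52 FPKM and a change of -1.59 (interval -1.93 to -1.26). Rcor1, the scaffold of CoREST, had 7.18 and 2.07 FPKM and a change of -1.32 (interval -1.59 to -1.04). The genes for the HDAC3 corepressor, 5 in all, had none past 2-fold and a median of 0.17, with Ncor1 at 33.5 and 39.2 FPKM (change 0.41).

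Of the MEF2 genes, whose products bind class IIa enzymes, 3 of 4 were kept. At least 2-fold lower was 1, Mef2b, and 0 were higher, against 3.98% and 3.8% of all genes kept. Mef2b lies on chromosome 8, whose genes kept had a median change of -0.39. It had 6.57 FPKM in WT and 0.137 in the Eed-/- labelled library, from about 55.1 fragments and 1 fragment. The FPKM ratio was 0.021 (interval 0.00056 to 0.12). Its exons overlap those of 2310045N01Rik on the same strand, so reads of the pair may have been split differently. Mef2a and Mef2d, the others kept, had changes of 0.62 and 0.0013.

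Among acetyltransferase partners, 1 of 18 SAGA and ATAC genes was at least 2-fold lower, Tada1 on chromosome 1 (6.89 and 2.44 FPKM, change -1.09), with a median of -0.09. None of 19 NuA4, MOZ and MSL subunit genes passed 2-fold after normalization. The largest normalized change among them was that of Msl1, 13.8 and 6.36 FPKM (change -0.87), which passed 2-fold on the FPKM as deposited at -1.01, as did Ing5 at -1.01. Their median was -0.11. Over all 135 listed genes kept, PRC2 and acetyl-CoA genes included, 1 was at least 2-fold higher and 7 lower, with a median of -0.01, against 3.8% and 3.98% of all genes kept. On the FPKM as deposited the same counts were 0 and 11, where those over all genes were 455 and 801. After normalization and without chromosomes 1, 8 and X, the counts of listed genes were 0 and 5 of 114.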

How the data were processed

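RNA-seq of WT and Eed-/- mESCs was analysed, with 1 library per genotype. The authors made strand-specific libraries, used TopHat to map them to mm9 and ran Cufflinks, whose deposited output is 1 FPKM value per symbol entry. The submitters' processing notes name TopHat2 2.0.11 and Cufflinks 2.2.1, and the annotation is not given in the sources used here. The samples of the other assays were not analysed here.

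For 268 symbols with several entries the values were added up. After quantile normalization of the libraries, a change was the difference in log2(FPKM + 1), and genes whose normalized FPKM averaged 0.1 or more were kept. With 1 library per group no test was made. The depth estimate used 5103 genes with 1 annotated transcript, from the steps between their low FPKM values, with 180 bp taken off each length. Intervals at 95% are exact (Clopper-Pearson) for a gene and from a normal approximation for ratios of sums, and cover counting error only. GENCODE vM1 on NCBIM37, the assembly of mm9, gave positions and lengths. Near-identical copies, with at least 80% of the sequence covered at 95% identity, were found with minimap2 2.31.

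The members and gene lists were chosen with earlier results of these data known. The genes named were the members, Eed, the listed enzymes past 2-fold, Brd2, Brd3, Ncor1 and, of each other list, the genes past 2-fold or else the one with the largest change at a mean FPKM of at least 1. A few genes named by this rule are not reported. Kat8, Clock, Kat2a, Hat1, Hdac6, Mef2a, Mef2d, Ing5 and the marker genes were named after their values were seen. As alternatives, the FPKM were left as deposited or scaled by median ratio over genes averaging 2 FPKM or more (all, or autosomes other than 1 and 8), with pseudocounts of 0.1 and 0.01, other filters, and other members of the ratios. The computations were tested on simulated data. Python 3.11.15 was used with scipy 1.17.1, pandas 2.3.3, numpy 2.4.6 and matplotlib 3.10.9.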

Additional observations from a re-analysis of the deposited data

How the results depend on the processing

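Of the 9 members, 8 kept the sign of their change under all 6 alternatives of scaling, pseudocount and repeated symbols, and Hdac2 did not. The median change of the members was 0.08 and turned to -0.15 on the FPKM as deposited and to -0.025 with median-ratio scaling on autosomes other than 1 and 8. No member passed 2-fold except Hdac7 with a pseudocount of 0.01, which gave 1 higher. At 1.5-fold, Hdac5 was lower on the FPKM as deposited, and Crebbp and Hdac7 were higher with either lower pseudocount. Over all listed genes, the 1 higher and 7 lower became 0 and 11 on the FPKM as deposited, and 6 and 8 with a pseudocount of 0.1 or of 0.01. Over all genes kept, the 2-fold calls were 1694 higher and 1778 lower with a pseudocount of 0.1, and 1914 and 1989 with 0.01. The log2 change of writers against deacetylases was 0.51. It turned to -0.090 with all listed enzymes added and was 0.085 when Hat1 was then left out, while 0.43, 0.49 and 0.46 were found with class I only, without Hdac4 and on normalized values. The cause of these shifts was not tested. No paired analysis was possible because each genotype has 1 RNA library, and for the same reason no library could be left out. Depth limits Hdac7 most, with about 7.85 and 16.0 fragments.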

Other observations

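The genes for acetyl-CoA supply, the substrate of the acetyltransferases, had a median change of 0.06 over 9 genes, with 0 past 2-fold in either direction. The largest change was that of Acss2, which makes acetyl-CoA from acetate, with 2.09 FPKM in WT and 4.32 in the Eed-/- labelled library (change 0.88, interval 0.46 to 1.28). Acly, which makes it from citrate, had 169 and 132 FPKM and a change of -0.09 (interval -0.15 to -0.03), and was chosen after its values were seen.

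Of 10 genes for PRC2 subunits and accessory factors, 1 was at least 2-fold lower and 0 higher, against 3.98% and 3.8% of genes kept. The median of the 10 was -0.09. The interval lay above 0 for 4 of them and below 0 for 4, against 24.7% and 23.2% of genes with fragments in both libraries. Phf19, a subunit that reads methylated H3K36, had 13.7 FPKM in WT and 2.61 in the Eed-/- labelled library, from about 353 and 59.9 fragments (change -1.92, interval -2.23 to -1.61). The other genes of this list are named after their values were seen. Ezh2, the catalytic subunit, had 34.2 and 17.7 FPKM (change -0.73, interval -0.93 to -0.53). Rbbp4 and Rbbp7 are histone-binding subunits that PRC2 shares with the HDAC1 and HDAC2 complexes. Their changes were -0.59 (interval -0.71 to -0.47) and -0.29 (interval -0.42 to -0.17). Rbbp7 is X-linked, and relative to the medians of their chromosomes Rbbp4 was at -0.60 and Rbbp7 at -0.75. On the other side, Aebp2 had a change of 0.67 (interval 0.57 to 0.78), Mtf2 of 0.43 (interval 0.32 to 0.54), Suz12 of 0.23 (interval 0.14 to 0.32) and Jarid2 of 0.07 (interval 0.0046 to 0.14). On the FPKM as deposited Suz12 was at 0.0047 and Jarid2 at -0.16.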
